A study of Mus musculus with 8 samples.

Results

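The genes described here are 10 genes of natural killer (NK) cells and of the cytotoxic granule: the receptor genes *Ncr1*, *Klrb1c*, *Klrk1*, *Klrd1* and *Klre1*, the granule genes *Gzma*, *Gzmb*, *Prf1* and *Nkg7*, and the transcription factor gene *Eomes*. They were taken by name, with earlier results of these data known, and all 10 were found among the 26939 genes of the joined count tables. The libraries are bulk RNA-seq of tumor-associated macrophages (TAMs), sorted on day 21 from EO771 tumors, a mouse breast cancer line grown in adult female mice. The sort kept live cells positive for CD45, CD11b and F4/80 and negative for Gr-1. There were 4 groups of 2 libraries, and the comparisons ask how the genes differ between the genotypes and with treatment. WT control and WT αMARCO came from C57BL/6J mice, and *Unc93b1* 3d/3d control and *Unc93b1* 3d/3d αMARCO came from mice with a mutant UNC93B1, the chaperone without which the endosomal Toll-like receptors (TLRs) do not signal. The mutation is germline and so is present in every cell of the host, while the implanted tumor cells carry the normal gene. αMARCO is a rat IgG1 antibody (clone ED31) against the scavenger receptor MARCO, given at 100 µg on days 3, 6, 9 and 12. The labels call the controls untreated or PBS, whereas the treatment protocol names an isotype antibody, so the control injection is not settled. Each control library was pooled from the TAMs of several mice, and the pooling of the αMARCO libraries is not given in the sources used here. The second *Unc93b1* 3d/3d control library carries a genotype label that reads 3d/4d and was grouped by its title.

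NK cells are innate lymphocytes that kill target cells when signals from activating receptors outweigh those from inhibitory receptors. Killing proceeds by release of granules, in which perforin opens the target membrane to granzymes that start cell death. CD8+ T cells use the same granules and carry several of the same receptors, so most of these genes mark cytotoxic lymphocytes in general rather than NK cells alone. Macrophages are not known for these genes as a class, although NKG2D, the product of *Klrk1*, has been described on activated mouse macrophages. F4/80, which the sort required, is as a rule absent from NK cells and T cells, while CD11b is present on many NK cells.

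The library totals were 15182618 to 26411936 counts, so the floor of 3 counts taken as detection stood at 0.114 to 0.198 CPM (counts scaled to the size of the library), a limit that covers counting error only. The sort markers were abundant in all 8 libraries, with *Ptprc* (CD45) at 796 to 1310 CPM, *Itgam* (CD11b) at 291 to 732 CPM and *Adgre1* (F4/80) at 333 to 719 CPM, and the neutrophil marker *Ly6g* (Gr-1) lay at 0.133 to 0.844 CPM. *Unc93b1* itself stood at 718 to 965 CPM in the WT libraries and 539 to 659 CPM in the *Unc93b1* 3d/3d libraries. As the 3d allele is a missense change, this level does not check the genotype. *Marco* had 1 to 17 counts per library. The 2 *Unc93b1* 3d/3d αMARCO libraries were the least alike, as 14.4% of all genes were more than 2-fold higher in the first than in the second, against 3.18% to 5.49% in the other groups. Counts of calls that involve them are given with and without each one.

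All 10 genes are protein coding, and no other gene of the joined count tables overlaps them in GRCm38, the build of the files. The lectin-like receptor genes lie together in the NK gene complex on chromosome 6, with *Klrb1c* at chr6:128778485-128789215, *Klre1* at chr6:129577905-129585827, *Klrd1* at chr6:129591782-129598775 and *Klrk1* at chr6:129610323-129623864. *Ncr1* (chr7:4337724-4345164) and *Nkg7* (chr7:43437073-43438249) share chromosome 7. The remaining members lie apart, with *Gzma* at chr13:113093825-113100981, *Gzmb* at chr14:56258838-56262260, *Prf1* at chr10:61297833-61304680 and *Eomes* at chr9:118478212-118486132. The Klr and granzyme genes belong to families with close paralogs, and the handling of reads shared between paralogs, as well as the strand setting of the counting, is not given in the sources used here.

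Promoter windows from RefSeq (GRCm38.p6, 250 bases before to 50 bases after a start) were available for 9 of the 10 members and were searched on both strands for 4 motifs, because T-box, Runx, ETS and STAT factors are known regulators of cytotoxic genes. The Runx motif TGTGGT was present in the windows of 8 of the 9 members, against 16.8% of the 32851 windows of all genes. Only the *Eomes* window lacked it. The T-box core GTGTGA, the kind of site bound by EOMES and T-bet, was found for *Ncr1*, *Klre1*, *Gzmb* and *Nkg7* (4 of 9 members, 14.5% of all windows). The ETS motif GGAAGT was found for *Klrb1c* and *Prf1* (23.8% of all windows), and the STAT motif TTCNNNGAA for *Gzmb* and *Nkg7* (8.3% of all windows). *Ncr1* and *Klre1* have 2 windows each, and so had more chances of a match. No matches overlapped, and a match describes letters only, not a bound site. Shown are the windows of *Gzmb*, *Nkg7* and *Prf1*, the granule genes that changed the most, and of *Klrk1*, which passed the test in no comparison with all libraries kept, 5′ to 3′ on the strand of the gene, with the Runx and T-box matches in capitals.
Gzmb (chr14:56262285-56262584, minus strand): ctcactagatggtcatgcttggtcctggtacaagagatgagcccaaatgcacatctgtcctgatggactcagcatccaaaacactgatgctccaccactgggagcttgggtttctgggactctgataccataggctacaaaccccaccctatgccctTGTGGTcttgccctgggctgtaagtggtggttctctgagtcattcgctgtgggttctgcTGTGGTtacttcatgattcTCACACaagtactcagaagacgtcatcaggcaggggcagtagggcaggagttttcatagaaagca
Nkg7 (chr7:43436888-43437187, plus strand): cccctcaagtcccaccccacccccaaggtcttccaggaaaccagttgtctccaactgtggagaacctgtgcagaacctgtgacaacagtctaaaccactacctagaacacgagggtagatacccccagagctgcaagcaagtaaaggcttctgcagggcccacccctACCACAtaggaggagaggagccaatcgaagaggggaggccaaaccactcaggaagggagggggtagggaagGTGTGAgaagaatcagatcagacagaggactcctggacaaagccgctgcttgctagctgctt
Prf1 (chr10:61297586-61297885, plus strand): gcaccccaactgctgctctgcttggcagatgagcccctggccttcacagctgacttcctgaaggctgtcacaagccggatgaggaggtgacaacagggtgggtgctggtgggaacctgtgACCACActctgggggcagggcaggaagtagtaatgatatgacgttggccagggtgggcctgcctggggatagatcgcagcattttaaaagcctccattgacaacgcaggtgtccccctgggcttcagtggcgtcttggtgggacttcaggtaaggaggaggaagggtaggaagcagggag
Klrk1 (chr6:129623815-129624114, minus strand): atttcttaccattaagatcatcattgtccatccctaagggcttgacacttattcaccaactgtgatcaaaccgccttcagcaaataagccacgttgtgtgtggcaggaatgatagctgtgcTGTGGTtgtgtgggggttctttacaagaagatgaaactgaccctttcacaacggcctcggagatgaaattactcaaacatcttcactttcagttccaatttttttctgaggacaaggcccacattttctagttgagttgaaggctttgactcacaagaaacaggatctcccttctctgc
The *Gzmb* window holds Runx matches that begin 93 and 34 bases upstream of the start and a T-box core 15 bases upstream. In the *Nkg7* window the Runx match begins 83 bases and the T-box core 12 bases upstream. *Prf1* and *Klrk1* have a Runx match each, 130 and 129 bases upstream, and no T-box core.

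**Figure D1:**
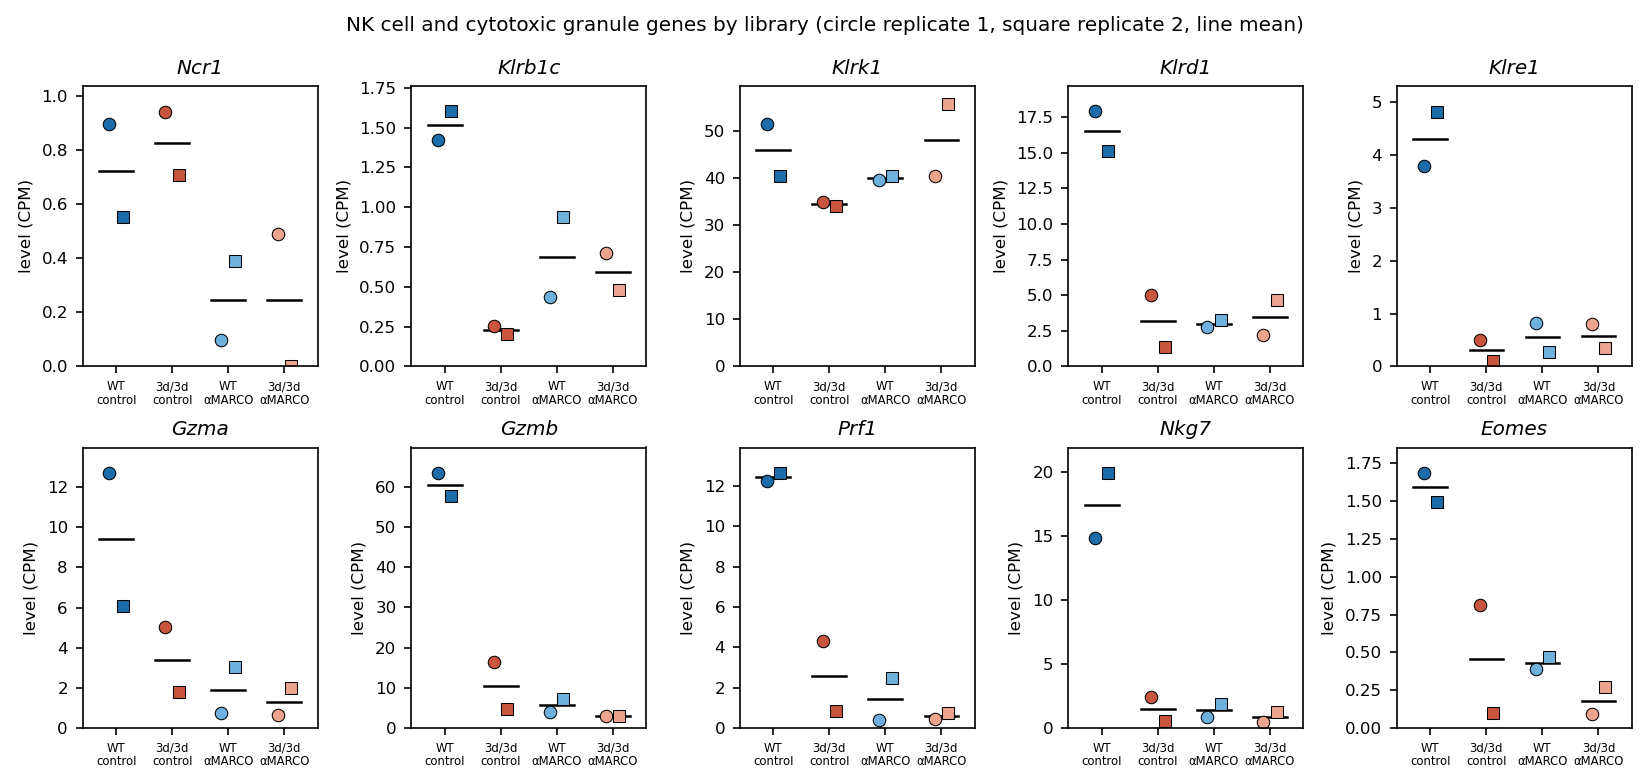
Level of each member in CPM (vertical axis, linear from 0) in the 4 groups (horizontal axis), with circles for replicate 1, squares for replicate 2 and lines for the group mean. For 8 of the 10 members, all but *Ncr1* and *Klrk1*, both WT control libraries lie above the 6 others. The share of all genes with this order was not counted.

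Per kilobase of gene length, so that genes can be set side by side, *Gzmb* was the most abundant member in WT control TAMs, at a mean of 42.2 CPM per kilobase. *Nkg7* followed at 19.0, *Klrd1* at 12.9, *Gzma* at 9.34, *Klrk1* at 6.39, *Prf1* at 4.81, *Klre1* at 1.23, *Klrb1c* at 0.512, *Ncr1* at 0.471 and *Eomes* at 0.383 CPM per kilobase. The libraries of *Klrd1* and *Gzma*, of *Gzma* and *Klrk1*, of *Klrb1c* and *Ncr1*, and of *Ncr1* and *Eomes* overlapped on this scale, so the order of these neighbours is not resolved. In the αMARCO groups *Klrk1* led instead, at a mean of 5.56 in WT and 6.67 CPM per kilobase in *Unc93b1* 3d/3d, with *Gzmb* at 3.91 and 2.02 CPM per kilobase. *Ncr1* and *Eomes* were at or under 3 counts in 2 of the 8 libraries each and *Klre1* in 1, and the other 7 members exceeded 3 counts in every library.

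The granule genes were high in WT control TAMs and low in the other 3 groups. *Gzmb*, the protease that cleaves caspases in the target cell, stood at 63.5 and 57.7 CPM in WT control against 16.4 and 4.67 in *Unc93b1* 3d/3d control, 3.91 and 7.32 with αMARCO in WT, and 2.93 and 2.87 with αMARCO in *Unc93b1* 3d/3d. The WT control libraries were thus above all others, and the libraries of the 2 αMARCO groups did not overlap. With αMARCO in WT, *Gzmb* fell by 3.41 ± 0.25 on the log2 scale (SE, 10.6-fold, edgeR adjusted p = 0.000504). Between the control genotypes its log2 fold change of 2.53 ± 0.71 (WT over *Unc93b1* 3d/3d) did not pass the edgeR test (adjusted p = 0.132). The first *Unc93b1* 3d/3d control library held 3.52 times the level of the second.

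*Nkg7*, a membrane protein of the granule that is needed for its release, had levels of 14.9 and 19.9 CPM in WT control against 2.45 and 0.507 in *Unc93b1* 3d/3d control, 0.870 and 1.88 with αMARCO in WT, and 0.444 and 1.23 with αMARCO in *Unc93b1* 3d/3d. Here too the WT control libraries stood apart, while the libraries of the other 3 groups overlapped. It fell by 3.62 ± 0.31 on the log2 scale with αMARCO in WT (12.3-fold, edgeR adjusted p = 0.000153), the largest fall of the 10 members, and was 12.1-fold higher in WT control than in *Unc93b1* 3d/3d control TAMs (log2 fold change 3.59 ± 0.61, edgeR adjusted p = 0.0182).

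*Prf1*, which encodes perforin, was measured at 12.2 and 12.6 CPM in WT control against 4.33 and 0.862 in *Unc93b1* 3d/3d control, 0.387 and 2.47 with αMARCO in WT, and 0.444 and 0.752 with αMARCO in *Unc93b1* 3d/3d. The WT control libraries nearly coincided, whereas the first *Unc93b1* 3d/3d control library held 5.02 times the level of the second, and the first WT αMARCO library 0.157 times. With αMARCO in WT it fell by 3.06 ± 0.69 on the log2 scale (8.37-fold, edgeR adjusted p = 0.0351). In control TAMs the log2 fold change of WT over *Unc93b1* 3d/3d was 2.28 ± 0.68, which did not pass the edgeR test (adjusted p = 0.0854).

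*Gzma*, the tryptase of the granule, was at 12.7 and 6.09 CPM in WT control against 5.02 and 1.78 in *Unc93b1* 3d/3d control, 0.725 and 3.05 with αMARCO in WT, and 0.622 and 1.98 with αMARCO in *Unc93b1* 3d/3d. Both WT control libraries were above all others, but the replicates differed by 2.09-fold there and by more in each other group. Neither its log2 fold change of −2.28 ± 0.74 with αMARCO in WT (edgeR adjusted p = 0.0865) nor that of 1.47 ± 0.58 between the control genotypes (edgeR adjusted p = 0.145) passed the test.

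Among the receptors, *Klrd1* and *Klre1* followed the granule genes. *Klrd1* encodes CD94, the partner of the NKG2 chains in receptors that read non-classical MHC class I, and lay at 17.9 and 15.1 CPM in WT control against 5.02 and 1.37 in *Unc93b1* 3d/3d control, 2.75 and 3.25 with αMARCO in WT, and 2.22 and 4.65 with αMARCO in *Unc93b1* 3d/3d. It was high in WT control alone, and the other 3 groups overlapped. It fell by 2.45 ± 0.20 on the log2 scale with αMARCO in WT (5.48-fold, edgeR adjusted p = 7.23e-05) and was 5.22-fold higher in WT control than in *Unc93b1* 3d/3d control TAMs (log2 fold change 2.38 ± 0.56, edgeR adjusted p = 0.0436).

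*Klre1* encodes a lectin-like receptor that NK cells carry, and was detected at 3.80 and 4.82 CPM in WT control against 0.502 and 0.101 in *Unc93b1* 3d/3d control, 0.821 and 0.274 with αMARCO in WT, and 0.799 and 0.342 with αMARCO in *Unc93b1* 3d/3d. Outside WT control the counts were few, between 2 and 18 per library. The log2 fold change with αMARCO in WT was −3.00 ± 0.47 (8.03-fold lower, edgeR adjusted p = 0.00146), and WT control exceeded *Unc93b1* 3d/3d control by 14.6-fold (log2 fold change 3.86 ± 0.57, edgeR adjusted p = 0.00259).

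*Klrb1c*, the gene of NK1.1, was found at 1.42 and 1.61 CPM in WT control against 0.251 and 0.203 in *Unc93b1* 3d/3d control, 0.435 and 0.940 with αMARCO in WT, and 0.710 and 0.479 with αMARCO in *Unc93b1* 3d/3d. The *Unc93b1* 3d/3d control libraries were the lowest of the 8, and the αMARCO libraries of both genotypes lay between the 2 control groups. It was 6.48-fold higher in WT control than in *Unc93b1* 3d/3d control TAMs (log2 fold change 2.70 ± 0.61, edgeR adjusted p = 0.0169), and its log2 fold change of −1.11 ± 0.50 with αMARCO in WT did not pass the edgeR test (adjusted p = 0.112).

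*Ncr1* encodes NKp46, the receptor most restricted to NK cells and related innate lymphocytes, and showed no such pattern. Its level was 0.896 and 0.554 CPM in WT control against 0.941 and 0.710 in *Unc93b1* 3d/3d control, 0.0966 and 0.392 with αMARCO in WT, and 0.488 and 0 with αMARCO in *Unc93b1* 3d/3d, which is 0 to 17 counts. The control genotypes overlapped, with a log2 fold change of −0.19 ± 0.59 (edgeR adjusted p = 0.854). In both genotypes the αMARCO libraries were below the control libraries, without passing the edgeR test (log2 fold change −1.50 ± 0.74, adjusted p = 0.144 in WT; −1.58 ± 1.19, adjusted p = 0.823 in *Unc93b1* 3d/3d). At this depth a moderate difference was not detectable.

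*Klrk1*, the gene of the activating receptor NKG2D, was the member with the most counts outside WT control, and was nearly level: 51.4 and 40.3 CPM in WT control against 34.8 and 34.1 in *Unc93b1* 3d/3d control, 39.4 and 40.4 with αMARCO in WT, and 40.3 and 55.5 with αMARCO in *Unc93b1* 3d/3d. WT control and WT αMARCO overlapped. Its log2 fold change was −0.20 ± 0.12 with αMARCO in WT (edgeR adjusted p = 0.212) and 0.40 ± 0.13 between the control genotypes (edgeR adjusted p = 0.064), the smallest among the 9 members that were higher in WT control. The ratio of *Klrk1* to *Gzmb* per kilobase was 0.162 and 0.140 in WT control and 0.423 to 3.87 in the 6 other libraries.

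*Eomes*, a T-box factor of NK cells and memory CD8+ T cells, was at 1.69 and 1.50 CPM in WT control against 0.816 and 0.101 in *Unc93b1* 3d/3d control, 0.387 and 0.470 with αMARCO in WT, and 0.0888 and 0.274 with αMARCO in *Unc93b1* 3d/3d. WT control was again above all others. It fell by 1.87 ± 0.49 on the log2 scale with αMARCO in WT (3.66-fold, edgeR adjusted p = 0.0152), and its log2 fold change of 1.83 ± 0.75 between the control genotypes did not pass the edgeR test (adjusted p = 0.122). Of the other factors, *Tbx21* (T-bet) stood at 5.27 and 5.10 CPM in WT control and at 0.222 to 1.21 CPM in the 6 other libraries.

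**Figure D2:**
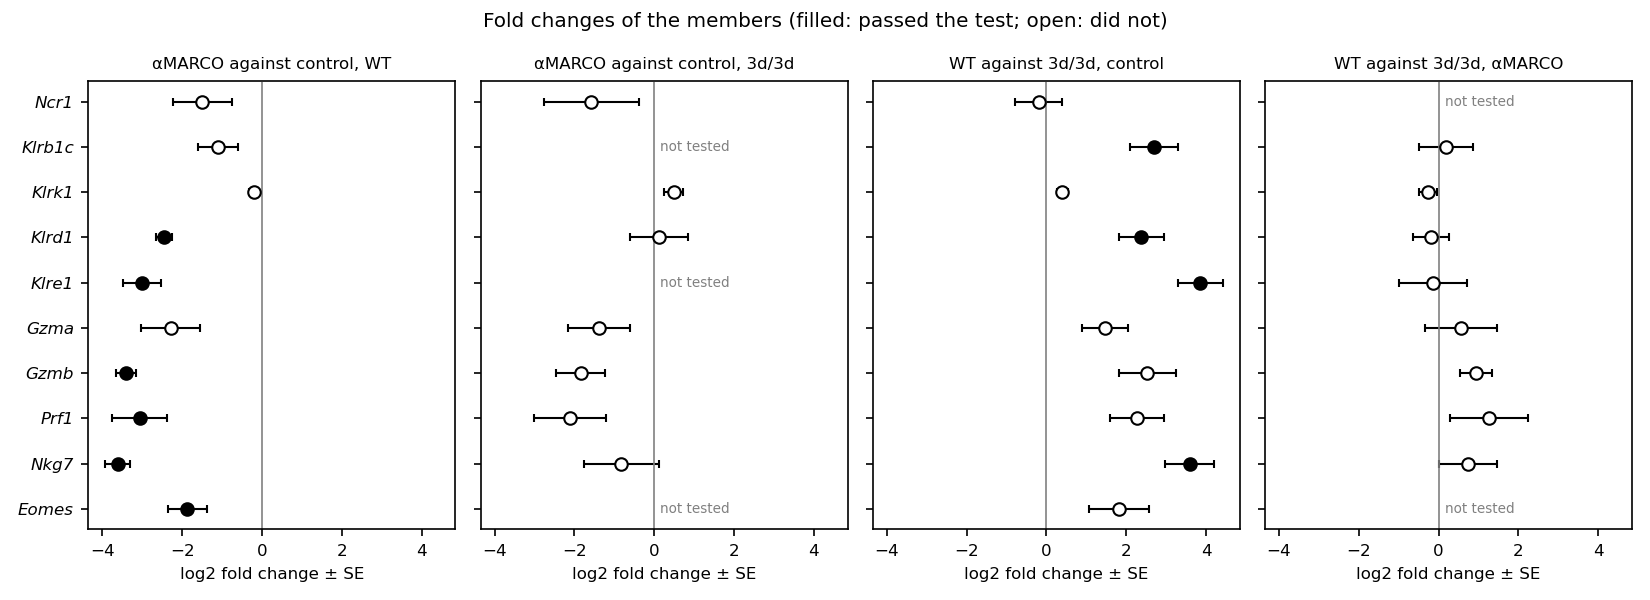
Log2 fold change with its SE (horizontal axis) of each member (vertical axis) in 4 comparisons, with filled points for members that passed the test. In WT αMARCO against control 6 points are filled, all below 0, and in WT against *Unc93b1* 3d/3d control 4 are filled, all above 0, while none is filled in the 2 other panels.

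In WT TAMs, *Klrd1*, *Klre1*, *Gzmb*, *Prf1*, *Nkg7* and *Eomes* were lower with αMARCO, that is 6 of 10 members, and no member was called higher. A gene was called where its edgeR adjusted p did not exceed 0.05 and its log2 fold change reached 0.5 in either direction, and 11.8% of the 15630 genes tested were called lower. The median log2 fold change was −2.37 over the members and −0.01 over all genes tested. For 9 of the 10 members, all but *Klrk1*, both αMARCO libraries were below both control libraries, which held for 36.2% of all genes. In bulk RNA, fewer cells of a type and less RNA per cell cannot be told apart. DESeq2 called 5 of the 6 members lower, without *Eomes* (DESeq2 adjusted p = 0.0611), and 1503 of 25534 genes lower. In a fit of all 8 libraries with 1 shared spread, to which the *Unc93b1* 3d/3d αMARCO libraries also contribute, 1 member was called, *Gzmb*. Of the 16620 genes in that fit 119 were called lower. Without the first or the second WT αMARCO library *Eomes* was not called, without either WT control library *Prf1* was not called, and *Gzma* was called without the second WT αMARCO library.

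Between the control genotypes, *Klrb1c*, *Klrd1*, *Klre1* and *Nkg7* were higher in WT, that is 4 of 10 members, against 6.58% of the 15600 genes tested that were called higher. The median log2 fold change was 2.33 over the members and 0 over all genes. Both WT libraries exceeded both *Unc93b1* 3d/3d libraries for 9 of the 10 members, all but *Ncr1*, and for 33.3% of all genes. With DESeq2 6 members were called, with *Gzma* and *Gzmb* added, and 932 of 24779 genes were called higher. The fit of all 8 libraries called 2 members, *Gzmb* and *Nkg7*, and 249 of 16620 genes higher. A fit with a library left out rests on a lone library in that group. Its member calls are therefore listed without a share of all genes and do not set the members apart. Without the first *Unc93b1* 3d/3d control library 7 members were called, *Gzma*, *Gzmb*, *Prf1* and *Eomes* among them but not *Klrb1c*, and without the second 5 were called, again without *Klrb1c*. Leaving out the first WT control library left 2 calls, *Klrb1c* and *Klre1*, and leaving out the second left 3, as *Klrd1* and *Nkg7* were lost and *Klrk1* was gained (log2 fold change 0.56, edgeR adjusted p = 0.0317). *Klre1* was called with each of the 4 libraries left out in turn. As the WT control libraries enter both this comparison and that of αMARCO in WT, the 2 sets of calls share their high group and are not separate evidence.

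In *Unc93b1* 3d/3d TAMs, no member passed the test with αMARCO. Of the 7 members that passed the filter on low counts 0 were called, and of the 15428 genes tested 0 (0.0%), although 744 genes had an unadjusted p of at most 0.05, among them *Gzmb*. DESeq2 called 52 genes and no member. *Gzmb* had a log2 fold change of −1.84 ± 0.62 (edgeR adjusted p = 0.823). *Prf1* had a log2 fold change of −2.11 ± 0.90 and *Klrd1* of 0.12 ± 0.72, neither passing the edgeR test (adjusted p = 0.823 and 0.97). The αMARCO libraries were below both controls for *Ncr1*, *Gzmb* and *Prf1*, as they were for 20.4% of all genes, and above them for *Klrk1* and, among the members not tested, *Klrb1c*. The share of all genes above both controls was not counted. Without the first αMARCO library 5387 genes were called, *Ncr1* and *Klrk1* among them, and without the second 325 genes and no member were called. The lone library left is then assumed to vary like the controls. So a lack of calls in this comparison does not show that the members did not change.

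Between the genotypes under αMARCO, 0 of the 8 members tested were called, and 0 of 15722 genes (0.0%). DESeq2 called 198 genes and no member, and 1076 genes but no member had an unadjusted p of at most 0.05 in edgeR. The median log2 fold change of the members was 0.37. *Gzmb* was the single tested member whose WT libraries were both above the *Unc93b1* 3d/3d libraries, which held for 23.9% of all genes (log2 fold change 0.94 ± 0.41, edgeR adjusted p = 0.709). Without the first *Unc93b1* 3d/3d αMARCO library 6258 genes were called, with *Gzmb* as the only member, and without the second 1220 genes and no member were called.

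Whether the αMARCO effect differed between genotypes was tested in a model of all 8 libraries. Of the 10 members 0 passed, and of 16620 genes 0 (0.0%), with 2549 genes and 5 members at an unadjusted p of at most 0.05. These 5 were *Klrb1c* (difference of log2 fold changes, WT minus *Unc93b1* 3d/3d, −2.53 ± 0.89), *Klrk1* (−0.69 ± 0.27), *Klrd1* (−2.57 ± 0.78), *Klre1* (−4.01 ± 1.12) and *Nkg7* (−2.80 ± 1.03), each with an edgeR adjusted p of 0.318. DESeq2 called 197 genes, with *Klrd1* as the one member. For *Gzmb* the difference was −1.59 ± 0.74 and for *Prf1* −0.98 ± 1.27. Without the first *Unc93b1* 3d/3d αMARCO library 6415 genes were called, *Klrk1* and *Klrd1* among them, and without the second 587 were called, with *Klre1* among them. A p that misses the threshold does not show that the effect was alike in both genotypes.

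Genes of T cells moved with the members. All 16 T cell markers measured, such as the CD3 chain genes *Cd3d*, *Cd3e* and *Cd3g* and the receptor constant genes *Trac*, *Trbc1* and *Trbc2*, fell with αMARCO in WT (median log2 fold change −2.80) and all 16 were higher in WT control than in *Unc93b1* 3d/3d control TAMs (median 2.65). Their summed level was 184 and 202 CPM in WT control against 43.2 and 21.5 in *Unc93b1* 3d/3d control, 20.2 and 31.9 with αMARCO in WT, and 13.8 and 14.4 with αMARCO in *Unc93b1* 3d/3d. *Cd8a* and *Cd8b1*, the CD8 chains, summed to 21.4 and 26.6 CPM in WT control and to 0.222 to 1.76 CPM in the 6 other libraries. *Cd8a* alone fell by 4.79 on the log2 scale with αMARCO in WT (edgeR adjusted p = 1.93e-05). The 9 members other than *Klrk1* summed to 129 and 119.9 CPM in WT control against 35.8 and 10.3 in *Unc93b1* 3d/3d control, 10.4 and 20.0 with αMARCO in WT, and 8.75 and 12.6 with αMARCO in *Unc93b1* 3d/3d. The part of T cells in the members' levels was not tested.

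**Figure D3:**
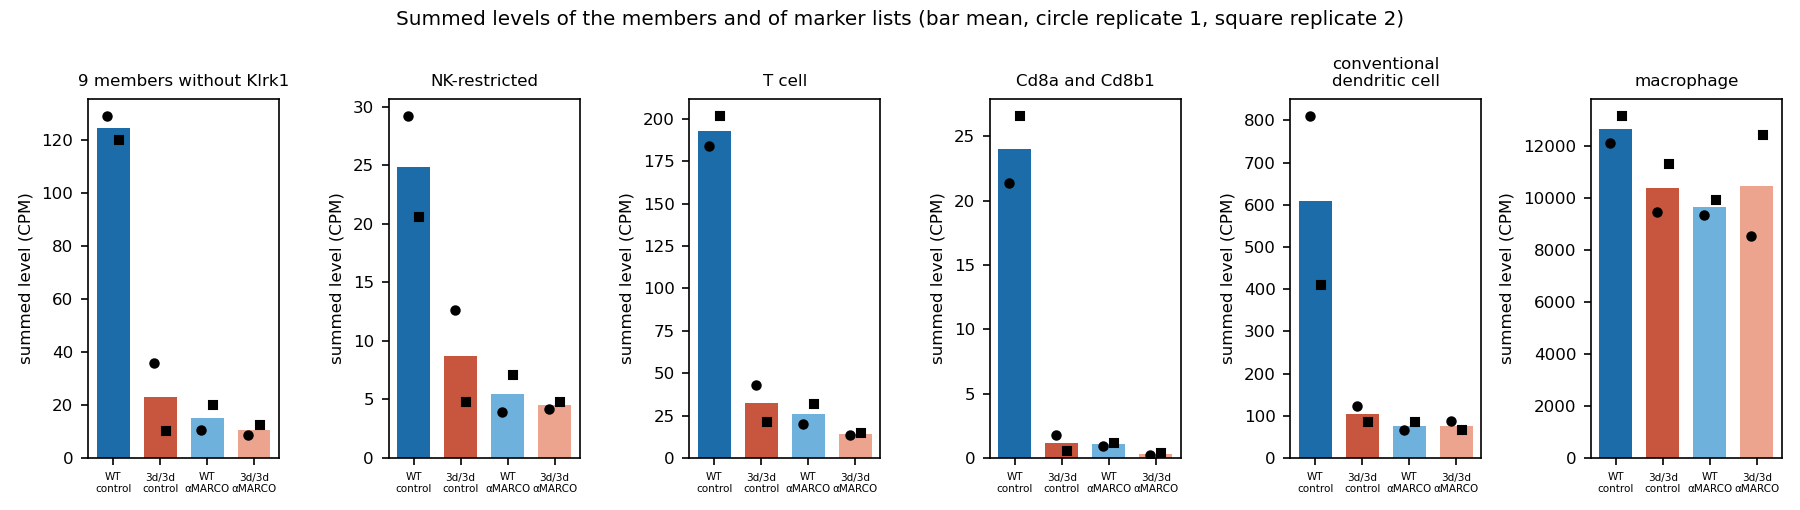
Summed level in CPM (vertical axis, linear from 0, its own scale in each panel) of 9 members and of 5 marker lists in the 4 groups, with bars for the group mean and points for the libraries. The members and the NK-restricted, T cell, CD8 and dendritic cell lists were all highest in WT control. The macrophage list also had its highest mean there, at 12650 CPM against 9655 to 10490 CPM in the other groups. Its libraries overlapped, from 8566 to 13170 CPM over all groups.

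A further list, named NK-restricted in the plot of summed levels, held genes more typical of NK cells than of T cells. Of its 9 genes, which include the members *Ncr1*, *Klrb1c*, *Klre1*, *Eomes* and *Gzma* (the last pair also known from CD8+ T cells), 4 of 7 tested were lower with αMARCO in WT and 3 of 9 were higher in WT control than in *Unc93b1* 3d/3d control TAMs. *Klri2*, a receptor gene of the NK gene complex, passed in both. *Klra4*, *Klra8* and *Klrb1f* did not pass between the control genotypes (log2 fold change −0.08, −0.12 and 0.73, edgeR adjusted p = 0.949, 0.95 and 0.49), nor did *Ncr1*. The sum of the 9 genes was 29.2 and 20.6 CPM in WT control against 12.6 and 4.82 in *Unc93b1* 3d/3d control, 3.91 and 7.05 with αMARCO in WT, and 4.17 and 4.79 with αMARCO in *Unc93b1* 3d/3d. *Gzma* alone held 12.7 and 6.09 CPM of the WT control sums. Per kilobase, *Gzmb* was 10.2 and 7.20 times as abundant as *Cd8a* in WT control and 18.7 to 55.7 times as abundant in the 6 other libraries. *Ncr1* ranged from 0.167 to 0.518 times *Cd3e* in WT control and from 0 to 4.16 times *Cd3e* elsewhere.

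Other cell types were also represented. The 8 conventional dendritic cell markers summed to 810.4 and 409 CPM in WT control and 66.0 to 124 CPM in the 6 other libraries. In the first WT control library *Fscn1*, *Ccr7* and *Ccl22* held 288.4, 214.5 and 183.7 CPM of that sum. Of the 8 markers, 4 were called lower with αMARCO in WT (*Zbtb46*, *Xcr1*, *Ccr7* and *Fscn1*) and 2 higher in WT control than in *Unc93b1* 3d/3d control (*Xcr1* and *Ccr7*). The others did not pass between the control genotypes, among them *Clec9a* (log2 fold change 0.25, edgeR adjusted p = 0.723). Of the 10 macrophage markers, 4 were lower with αMARCO in WT (*Adgre1* and the complement genes *C1qa*, *C1qb* and *C1qc*), and between the control genotypes *Ptprc* and *Itgam* were higher and *Mertk* lower in WT. Neutrophil markers gave 3 lower of 6 tested with αMARCO in WT (*S100a8*, *Cxcr2* and *Ltf*) and 1 higher of 8 between the control genotypes (*Ltf*). For the markers of tumor and stroma 5 of 7 were lower with αMARCO in WT, and between the control genotypes *Pecam1* was higher and *Col3a1* lower in WT. Of the B cell markers 3 were tested in each of these comparisons, and *Cd79b* was lower with αMARCO in WT and higher in WT control, while *Ms4a1* (0.355 to 1.84 CPM) and *Pax5* (0.274 to 2.98 CPM) did not pass. Of the plasmacytoid dendritic cell markers *Bst2* alone was lower with αMARCO in WT, of the mast cell and basophil markers *Kit* was lower there and *Cpa3* lower in WT control than in *Unc93b1* 3d/3d control, and of the ILC1 markers *Cxcr6* and *Cd200r1* were lower with αMARCO in WT and higher in WT control, and *Itga1* was higher with αMARCO in WT. With αMARCO in *Unc93b1* 3d/3d 0 of the 15428 genes tested were called, so these lists could have no call there. Their part in the members' levels was not tested.

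The members also differed together between replicates. In *Unc93b1* 3d/3d control all 10 members were higher in the first library, by 1.02- to 8.04-fold (median 3.60), and 7 of them by more than 2-fold, against 5.49% of all genes. The T cell markers were higher there too, 14 of 16 with a median ratio of 2.14. In WT αMARCO 1 of 10 members was higher in the first library (median ratio 0.499), as was 1 of the 16 T cell markers (median 0.589). For *Ncr1* in *Unc93b1* 3d/3d αMARCO no ratio was formed, as its second library was at 0. In WT control the members were divided, 6 of 10 being higher in the first library (median 1.12). The ratio of all genes had a median between 0.979 and 0.997 in the 4 groups. Of all genes, 47.9% were higher in the first library in *Unc93b1* 3d/3d control, 44.0% in WT αMARCO and 49.3% in WT control.

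**Figure D4:**
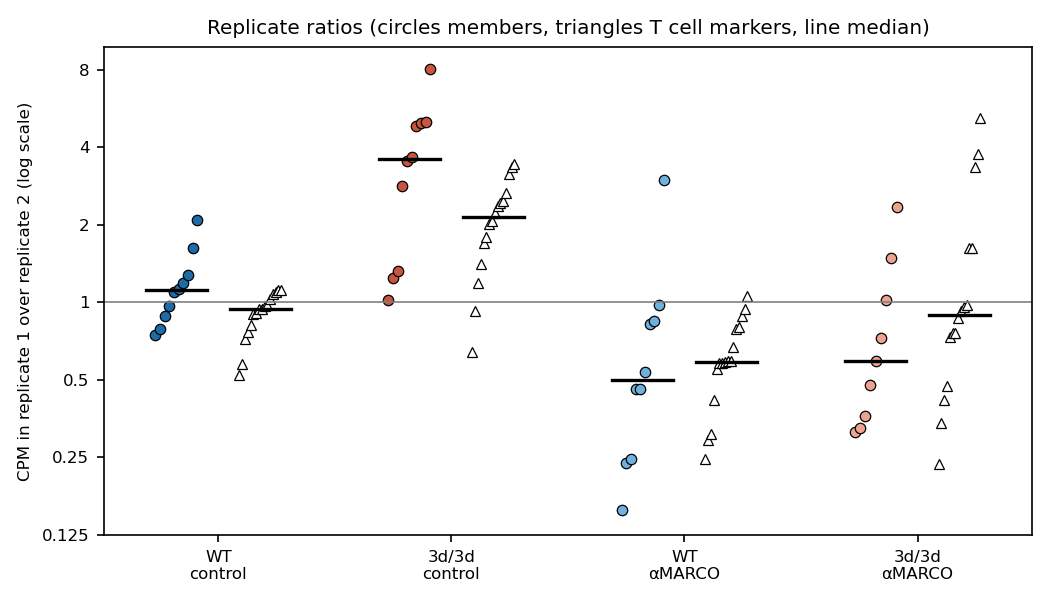
CPM in replicate 1 divided by CPM in replicate 2 (vertical axis, log scale) for the members (circles) and the T cell markers (triangles) in each group, with lines at the medians. In *Unc93b1* 3d/3d control the circles lie at or above 1, up to 8.04, and in WT αMARCO all circles except *Klre1* lie below 1.

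Over the 8 libraries, each member was compared with the mean of the other 9 on the log2 CPM scale, as a description. *Nkg7* (Pearson's r = 0.98), *Klrd1* (0.96), *Gzmb* (0.95), *Prf1* (0.93), *Eomes* (0.91), *Gzma* (0.85) and *Klre1* (0.80) followed the others, *Klrb1c* less so (0.71), and *Ncr1* (0.31) and *Klrk1* (0.24) hardly at all. The libraries fall into WT control and the rest, and that gap enters these values. Outside the members, the genes most alike were *Tnfrsf4* (OX40, r = 0.99), *Grap*, *Hcn3*, *Trac*, *Tbx21*, *Syn3*, *Gem*, *Mreg*, *Tnfrsf18* (GITR) and *Gm7240* (r = 0.97 for the last), among 16620 genes. *Tnfrsf4*, a costimulatory receptor of activated T cells, ran from 14.1 to 17.3 CPM in WT control and from 2.37 to 5.21 CPM in the other libraries.

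The wider family of NK receptors was divided. Of the 25 tested with αMARCO in WT, 13 were lower and none higher (median log2 fold change −1.53), and of the 26 tested between the control genotypes 10 were higher in WT and 1, *Cx3cr1*, was lower (log2 fold change −0.92). *Klrc1*, which encodes NKG2A, the inhibitory partner of CD94, fell by 2.58 on the log2 scale with αMARCO in WT and was 3.91 higher on that scale in WT control. *Cd96* and *Tigit*, inhibitory receptors for the PVR family of ligands, fell by 2.52 and 3.15 with αMARCO in WT and stood 4.15 and 2.74 higher in WT control than in *Unc93b1* 3d/3d control. *Klrb1b*, an inhibitory NKR-P1 receptor gene next to *Klrb1c*, was far more abundant, at 107 and 80.6 CPM in WT control against 11.8 and 13.8 in *Unc93b1* 3d/3d control, 63.4 and 58.9 with αMARCO in WT, and 14.0 and 35.6 with αMARCO in *Unc93b1* 3d/3d, and its fall with αMARCO in WT was small (log2 fold change −0.62, edgeR adjusted p = 0.00957). The Ly49 genes of the *Klra* group were at or under 2.49 CPM in all libraries, and only *Klra7* was called, higher in WT control (log2 fold change 2.60).

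Among the signalling genes, 9 of 17 were lower with αMARCO in WT and 9 of 17 higher in WT control than in *Unc93b1* 3d/3d control. This list shares genes with the T cell markers, *Lck*, *Lat* and *Cd247* among them. Among those called in both comparisons were genes of T cell receptor and NK kinases and adaptors: *Sh2d2a* (log2 fold change −2.96 and 2.82), *Lck* (−2.93 and 2.32) and *Zap70* (−2.54 and 2.22). The adaptors that the receptors of macrophages share, *Tyrobp* and *Fcer1g*, moved by less than the fold change threshold with αMARCO in WT (log2 fold change −0.38 and −0.10), and *Fcer1g* was higher in WT control (0.56). *Hcst*, the adaptor DAP10 of NKG2D, passed in neither comparison. Per kilobase *Klrk1* stood at 0.343 to 0.821 times *Hcst* in all 8 libraries. Among the transcription factors, 5 of 13 were lower with αMARCO in WT (*Gata3*, *Tox*, *Tbx21*, *Stat4* and *Ets1*) and 4 of 13 higher in WT control (the same without *Ets1*), while *Nfil3*, *Id2* and *Runx3*, which macrophages also express, did not pass.

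Of the other contents of the granule, some moved as the members did. *Gzmd*, *Gzme*, *Gzmf*, *Gzmk* and *Ctsw* (cathepsin W), 5 of 8 tested, were lower with αMARCO in WT and the same 5 were higher in WT control than in *Unc93b1* 3d/3d control. *Gzmd*, *Gzme* and *Gzmf* belong to a cluster of near-identical copies near *Gzmb* and their counts were few, so their values are uncertain. *Gzmf*, for example, had 5.48 and 1.61 CPM in WT control and 0 to 0.251 CPM elsewhere. The proteoglycan gene *Srgn* and the granzyme-activating protease gene *Ctsc*, abundant in macrophages, did not pass. The machinery of granule release, which macrophages also use, had 0 of 10 genes called with αMARCO in WT. *Lamp1* (log2 fold change −0.50, edgeR adjusted p = 0.002), *Stx11* (−0.37, 0.00803), *Ap3b1* (−0.27, 0.0209) and *Lyst* (0.33, 0.0124) passed the adjusted p but not the fold change threshold, which *Lamp1* missed before rounding. Between the control genotypes *Stx11* was higher (log2 fold change 1.08) and *Lyst* lower in WT (−0.65). Of the 4 granzyme inhibitor genes, *Serpinb6b* (log2 fold change −3.15), *Serpinb9* (−2.12) and *Serpinb6a* (−0.89) were lower with αMARCO in WT, and *Serpinb6b* (2.63) and *Serpinb9* (2.09) higher in WT control. *Serpinb9*, the inhibitor of granzyme B, stood at 111 and 76.6 CPM in WT control and at 14.3 to 23.3 CPM in the 6 other libraries.

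**Figure D5:**
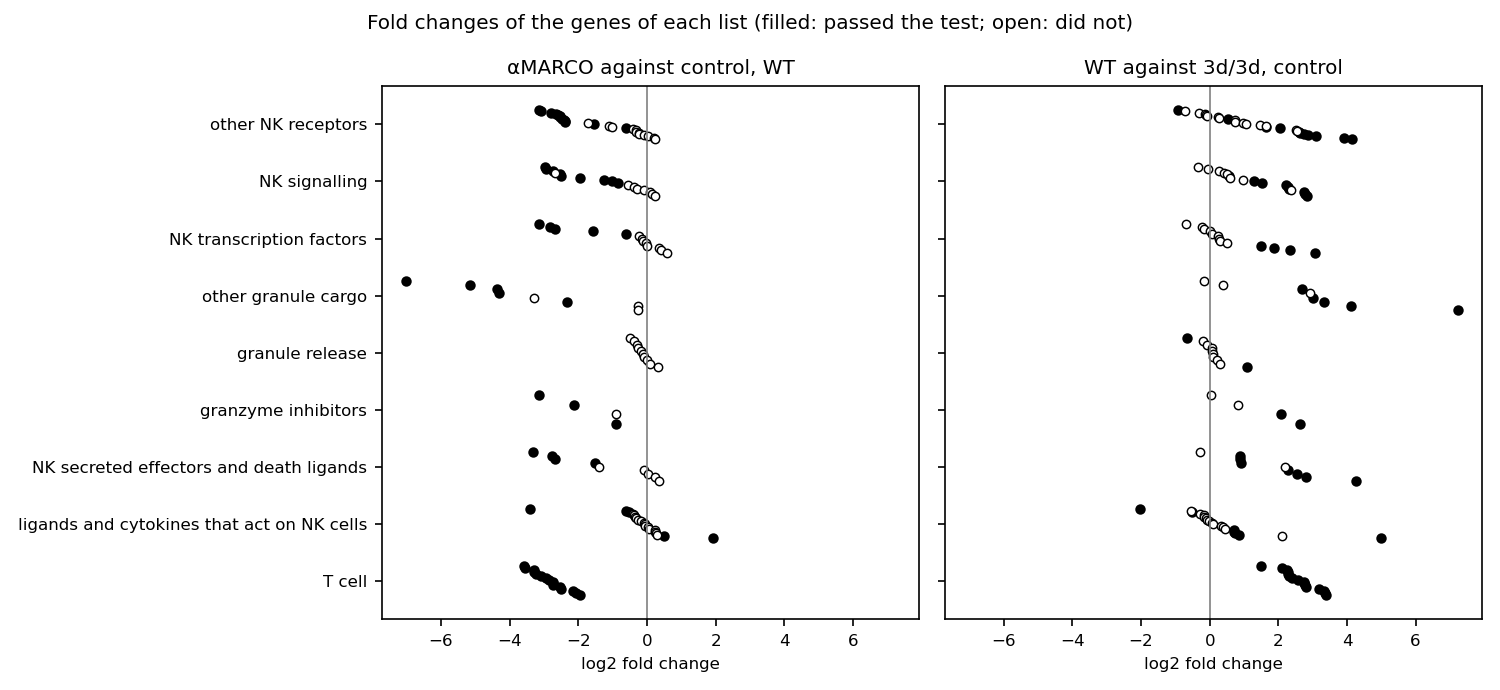
Log2 fold change (horizontal axis) of each tested gene of 9 lists (vertical axis) with αMARCO in WT (left) and between the control genotypes (right), with filled points for genes that passed the test. All 16 T cell points are filled in both panels, while the granule release list has 0 filled points on the left and 2 on the right.

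Of the secreted effectors and death ligands, 4 of 9 were lower with αMARCO in WT (*Ifng*, *Fasl*, *Xcl1* and *Ccl5*) and 7 of 9 higher in WT control. *Ifng*, the interferon of NK and T cells, was at 7.96 and 7.98 CPM in WT control against 0.879 and 0 in *Unc93b1* 3d/3d control, 0.193 and 1.33 with αMARCO in WT, and 0.0444 and 0.274 with αMARCO in *Unc93b1* 3d/3d. It fell by 3.31 on the log2 scale with αMARCO in WT (edgeR adjusted p = 0.00764). The chemokines *Ccl3* and *Ccl4*, which macrophages make in amount, were higher in WT control (log2 fold change 0.90 and 0.89) but did not pass with αMARCO in WT (0.34 and 0.24). Of the ligands and cytokines that act on NK cells, 20 of which were tested, 3 were lower and 2 higher with αMARCO in WT, and 5 were higher and 2 lower in WT control. *Il12b*, the p40 chain of interleukin-12, a cytokine that drives granule genes in NK cells, was at 26.2 and 23.2 CPM in WT control and 0.342 to 2.43 CPM elsewhere (log2 fold change −3.40 with αMARCO in WT and 4.99 between the control genotypes). *H60b*, a ligand of NKG2D, went the other way, at 1.85 and 1.83 CPM in WT control against 7.66 and 7.25 in *Unc93b1* 3d/3d control, 8.02 and 5.99 with αMARCO in WT, and 8.79 and 1.64 with αMARCO in *Unc93b1* 3d/3d (log2 fold change 1.93 with αMARCO in WT and −2.03 for WT against *Unc93b1* 3d/3d control). *Il15* and *Il18*, further cytokines that sustain or activate NK cells, did not pass in either comparison.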

How the data were processed

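Poly-A RNA of 8 libraries, 2 in each of 4 groups, was sequenced on an Illumina NovaSeq. Per the labels, the authors used fastp, HISAT2 2.0.5, GRCm38, featureCounts 1.5.0 and DESeq2 1.40.2. The authors deposited 3 tables of 2 groups each. The deposited raw counts per gene are not normalized and alone were used here. Not used were the deposited signal (counts divided by a size factor) with its group means, the deposited FPKM values, the authors' log2 fold changes and the authors' p-values and adjusted p-values.

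Merging on the gene identifier gave 26939 genes. Of 95230 counts that appear in several tables, 0 differed, and a gene missing from a table was set to 0, as a gene listed in a single table reached at most 1 count. Levels are CPM with TMM factors over all 8 libraries. Tests used edgeR 4.0.16 in R 4.3.3 (TMM, filterByExpr, robust quasi-likelihood test, Benjamini-Hochberg adjustment over all genes tested) on the 4 libraries of each comparison. The difference between genotypes was fitted on all 8 libraries. The SE is the absolute log2 fold change divided by the square root of F. Fold changes with zero-heavy groups depend on edgeR's prior count. The script was tested on simulated data.

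All 10 members are named. Other genes come from 9 lists and 11 marker lists, at most 6 named per list by size of change where called or where a result turns on them, and the 10 genes most correlated with the members. Genes named beyond this rule were chosen after their values were seen. The members and lists were chosen with earlier results of these data known. The alternatives were DESeq2 1.42.0, other normalizations, filters and thresholds, 1 model of all libraries, a replicate block and each library left out. A figure legend of the study describes the control libraries as pools of mice, and for the αMARCO libraries no source used here does. So there the p-values measure only the spread between these libraries, which may be technical. Some list genes were not found under their names in the tables and were not analysed here.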

Additional observations from a re-analysis of the deposited data

Results flagged for a closer look

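*Klrb1c* (NK1.1) was lower in both WT αMARCO libraries than in both WT controls, and higher in both *Unc93b1* 3d/3d αMARCO libraries than in both *Unc93b1* 3d/3d controls. The share of all genes with this opposite order was not counted, so the order does not set *Klrb1c* apart. In *Unc93b1* 3d/3d the gene did not pass the filter on low counts and was not tested. The difference of the log2 fold changes (WT minus *Unc93b1* 3d/3d) was −2.53 ± 0.89 and did not pass the test over all genes (edgeR adjusted p = 0.318). It was −2.18 without the first and −2.75 without the second *Unc93b1* 3d/3d αMARCO library, and −3.18 to −2.08 over all libraries left out in turn. It rests on 4 to 29 counts per library.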

How the results depend on the processing

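With αMARCO in WT, the count of 6 members called was 3 with at least 10 counts required in every library, where 5 members could be tested, and 1 in the model of all 8 libraries, and 5 to 6 with a library left out. In *Unc93b1* 3d/3d the count of 0 was 1 without a filter (*Gzmb*) and 0 to 2 with a library left out. Between the control genotypes the count of 4 was 2 with 10 counts required (7 tested), 2 in the model of all 8 libraries, 7 without a filter, and 2 to 7 with a library left out. Under αMARCO it was 0 to 1 with a library left out. For the difference of the effects it was 1 with DESeq2 (*Klrd1*), 1 without a filter (*Klre1*) and 0 to 2 with a library left out. With fewer genes or libraries tested these counts can change by construction, and beyond this the cause was not tested. The model of all 8 libraries called 164 genes in place of 3236 with αMARCO in WT, and 364 in place of 2025 between the control genotypes. With 10 counts required, 1585 of 13833 genes were called lower with αMARCO in WT. Between the control genotypes 820 of 13714 were then called higher in WT. Without a filter 1326 of 24779 genes were called higher in WT control. That setting called 174 of 24858 genes with αMARCO in *Unc93b1* 3d/3d and 152 of 26939 for the difference of the effects.

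Of 288 log2 fold changes of members under the settings that kept all libraries 0 changed sign, and of 220 with a library left out 20 did, none where the member was called with all libraries. These ranged from −0.54 to 1.33 for *Klrd1* and −1.67 to 0.71 for *Nkg7* with αMARCO in *Unc93b1* 3d/3d, and from −0.57 to 0.11 for *Ncr1* between the control genotypes. Under αMARCO the ranges were −0.46 to 0.62 for *Klrb1c*, −0.62 to 0.40 for *Klrd1*, −1.09 to 0.64 for *Klre1*, −0.82 to 1.59 for *Gzma* and −0.61 to 2.03 for *Prf1*. For the difference of the effects they were −1.24 to 5.48 for *Ncr1*, −2.26 to 0.13 for *Gzma* and −2.59 to 0.35 for *Eomes*.

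Whether the replicate numbers pair the libraries is not settled. The differences between replicates correlated by −0.08 to 0.14 between groups, which cannot show how the libraries were processed. With a replicate block the member counts were 6, 0, 5, 0 and 0 in the order above, and the 5 between the control genotypes were *Klrb1c*, *Klrd1*, *Klre1*, *Gzma* and *Eomes*. Over all genes the block called 1770 of 15630 lower with αMARCO in WT and 1208 of 15600 higher in WT control. The block changed the calls from 0 to 97 between the genotypes under αMARCO. With αMARCO in *Unc93b1* 3d/3d it changed them from 0 to 5. With 2 libraries a group, a member near the floor of 3 counts (*Ncr1*, *Klre1*, *Eomes*) allows no firm statement on its difference outside WT control.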
